A study of Mus musculus with 4 samples.

Results

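A set of 9 interferon-responsive genes was followed through sorted crypt cells of the mouse duodenum. They were named by symbol, as Irf7, Ifit1bl1, Ifit1, Ifit3, Isg15, Oasl2, Rsad2, Bst2 and Ido1, and all 9 were found among the 31053 genes of the deposited matrices. They were selected on their summed UMI levels in these same libraries, which differed between goblet and Paneth cells. That contrast and the order of the cell types are therefore given as descriptions, with no test. The levels are unique molecular identifiers (UMIs, each standing for 1 captured RNA molecule) summed over the cells of a type in a library, given as CPM, the gene's UMIs per 1000000 UMIs of that sum.

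Interferons are secreted signals that cells release on sensing foreign nucleic acid, and type III interferon acts above all on epithelia. Their receptors activate JAK kinases and STAT proteins, which enter the nucleus and, with IRF factors, switch on a shared set of antiviral genes through a promoter element called ISRE. Interferon gamma uses a receptor of its own, and Ido1 is among its well known targets. In the crypt, goblet cells make mucus and Paneth cells make antimicrobial defensins, and both arise from secretory progenitors that need Atoh1.

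TOM+ cells, marked by a red reporter, were sorted from duodenal crypts of 2 genotypes with 2 libraries each. WT mice carried Atoh1CreER-T2 and R26RTom. APC-KO mice carried, by the labels, Atoh1Cre, floxed Apc alleles (Apcfl/fl) and R26RTom, while the series text names Atoh1CreER-T2 for them too. Apc restrains Wnt signalling. Both groups received tamoxifen at 1 mg/mL in 2 doses 24 h apart and were harvested 12 h after the second. The Atoh1 driver is meant to mark the secretory lineage and its descendants. Cells named ISC and ENTERO-PRO were also among those kept, 575 and 116 in WT replicate 1 and 1245 and 468 in APC-KO replicate 2. Their descent was not tested. The labels give no age or sex and do not say whether the libraries came from separate animals. No p-value below can therefore be read as measuring more than the spread between these libraries. The tests also share the estimate of that spread over genes.

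The authors' tables kept 15234 cells under 12 type names, between 356 and 6243 a library, and median depth ran from 3973 to 8370 UMIs per cell. APC-KO replicate 1 stood apart, with 356 cells and 5.15% of its UMIs in kept cells, and had 28 GOBLET, 184 GOBLET-PRE, 16 PANETH and 11 PANETH-PRE cells. Library pairs shared between 1 and 8 cell barcodes. The marker lists of the 9 types that had one were each highest in the type of that name in both genotypes. Below, the goblet lineage is GOBLET plus GOBLET-PRE, and the Paneth lineage is PANETH plus PANETH-PRE. Apc had between 77.9 and 88.1 CPM over all cells of a library, but reads from the 3′ end check neither the deletion nor the labels.

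Promoter sequences of the members that hold paired GAAA cores of the ISRE are shown first, since this element defines the response and the 6 genes below differ in where they carry it. RefSeq promoter windows of 300 bases (250 before to 50 after a start, GRCm38.p6) were matched by symbol for 8 of the 9 members. The motif searched was GAAA, any 2 bases and GAAA again, on both strands, with overlaps allowed. It was found in 3.44% of all 32851 windows, in 7 of the 9 windows of members, in 19 of 50 windows of other interferon-stimulated genes, in 11 of 16 windows of interferon gamma targets and in none of 14 windows of tryptophan pathway genes. Each line gives bases 160 to 41 before the start, in the gene's direction, with matches in capitals (overlapping matches run together).
Ifit1bl1, chr19:34602009-34602128, minus strand: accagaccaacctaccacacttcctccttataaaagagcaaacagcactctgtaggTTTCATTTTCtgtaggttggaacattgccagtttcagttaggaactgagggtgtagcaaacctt
Ifit1, chr19:34640729-34640848, plus strand: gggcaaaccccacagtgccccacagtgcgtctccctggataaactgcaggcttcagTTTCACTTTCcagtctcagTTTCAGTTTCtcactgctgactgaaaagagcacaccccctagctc
Ifit3, chr19:34583369-34583488, plus strand: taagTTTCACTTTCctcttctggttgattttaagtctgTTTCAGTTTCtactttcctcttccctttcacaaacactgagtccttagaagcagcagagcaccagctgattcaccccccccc
Isg15, chr4:156200859-156200978, minus strand: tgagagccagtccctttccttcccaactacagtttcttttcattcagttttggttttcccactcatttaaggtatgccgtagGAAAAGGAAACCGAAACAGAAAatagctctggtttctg
Rsad2, chr12:26456493-26456612, minus strand: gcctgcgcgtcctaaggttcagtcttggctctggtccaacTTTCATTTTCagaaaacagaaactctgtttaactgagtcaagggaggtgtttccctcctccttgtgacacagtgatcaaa
Bst2, chr8:71537513-71537632, minus strand: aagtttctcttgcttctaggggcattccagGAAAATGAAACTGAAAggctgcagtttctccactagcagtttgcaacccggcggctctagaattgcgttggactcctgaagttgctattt
Isg15 had 3 overlapping matches, beginning 78, 72 and 66 bases before its start. Ifit1 had 2 separate ones, the nearer at 85, Ifit3 had 2 at 156 and 122, and Bst2 had 2 that overlap at 130 and 124. Ifit1bl1 and Rsad2 had 1 each in the stretches shown, and a second listed start of Ifit1bl1 had 1 match beginning 23 bases before it. The windows of Oasl2 and Irf7 held none of these letters, which says nothing about the factors that bind there. TTCNNNGAA, the motif of the interferon gamma response, was found in the window of 1 member, Bst2, and in 8.30% of all windows. A match is a description of the sequence, not a measured site. On GRCm38, Ifit3 (ENSMUSG00000074896, chr19:34583531-34588731), Ifit1bl1 (ENSMUSG00000079339, chr19:34592891-34601956) and Ifit1 (ENSMUSG00000034459, chr19:34640871-34650009) lie in 1 gene cluster, and Ido1 (ENSMUSG00000031551, chr8:24584136-24597009) and Bst2 (ENSMUSG00000046718, chr8:71534255-71537456) lie far apart on chromosome 8.

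Among the 12 types of the WT libraries, Ido1 was almost confined to 1 type, the other members were spread over several, and Ifit3 was scarcely captured. Ido1 encodes the enzyme that opens the tryptophan ring at the first step towards kynurenine. It had 391 and 653 CPM in GOBLET cells of WT replicates 1 and 2, from 317 and 922 UMIs. GOBLET-PRE cells followed at 14.0 and 11.3 CPM, and the remaining 10 types had means of 2.77 CPM or less. GOBLET was thus 28.0 and 57.7 times above GOBLET-PRE in the same libraries, with no overlap of the ranges at either step.

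Ifit1bl1 and Ifit1 belong to the IFIT family, whose proteins bind foreign RNA. Ifit1bl1 had 71.1 ± 7.50 CPM (SD, n = 2 here and for each mean below) in GOBLET, 52.2 ± 5.19 in GOBLET-PRE, 36.5 ± 11.7 in ENTERO-PRO, 24.3 ± 4.97 in EC and 24.1 ± 11.5 in NON-EC. The first 3 steps of this order did not overlap between types, while EC and NON-EC did. Ifit1 was highest in GOBLET-PRE at 37.6 ± 23.8 CPM, then GOBLET at 22.2 ± 10.4 and ENTERO-PRO at 15.3 ± 6.29, and these neighbours overlapped. Ifit3, another family member, gave 22 and 19 UMIs over all cells of the WT libraries and at most 2.80 CPM on average in any type, which was in EC. Near-identical copies of Ifit1bl1 and Ifit3 lie in the same cluster on chromosome 19 (Ifit1bl2 and Ifit3b), and how shared reads were counted was not given in the sources used here, so the levels of both are uncertain.

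Isg15 encodes a ubiquitin-like protein that is attached to other proteins, Oasl2 encodes a protein related to the oligoadenylate synthetases, and Irf7 encodes the transcription factor that amplifies interferon production. These 3 had the same leading pair of types. Isg15 had 206 and 86.4 CPM in GOBLET and 206 and 76.5 in GOBLET-PRE of WT replicates 1 and 2, Oasl2 had 99.9 and 58.7 against 85.1 and 35.7, and Irf7 had 118 and 87.1 against 88.7 and 41.1. GOBLET and GOBLET-PRE overlapped for each of them, and WT replicate 1 was the higher library every time. ENTERO-PRO came next for Isg15 at 67.7 ± 68.1 CPM, and TUFT came next for Oasl2 at 27.6 ± 19.0 and for Irf7 at 40.2 ± 26.8.

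Rsad2 and Bst2 did not share that order. Rsad2 encodes viperin, an enzyme that makes a chain-terminating nucleotide, and was highest in GOBLET-PRE at 49.3 ± 22.1 CPM, with EC at 43.5 ± 0.496, NON-EC at 34.5 ± 0.549 and EEC-PRE at 27.2 ± 17.5. GOBLET ranked seventh, at 9.86 and 6.37 CPM from 8 and 9 UMIs. Bst2 encodes tetherin, which holds budding virus at the cell surface, and had 84.2 ± 33.7 CPM in GOBLET-PRE, 56.8 ± 7.12 in ISC, 52.5 ± 18.9 in ENTERO-PRO and 50.4 ± 9.72 in GP. From GOBLET-PRE down to SEC-PRO each neighbour in the order of Bst2 overlapped the next. NON-EC was lowest, at 5.78 ± 4.16. Free RNA, taken from barcodes with few UMIs, held 55.1 and 54.2 CPM of Bst2 in the WT libraries. The means of EEC-PRE (8.99 CPM), EC (6.26) and NON-EC in these libraries lay far below that. The part of free RNA in the levels of ISC, ENTERO-PRO and GP was not tested.

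**Figure D1:**
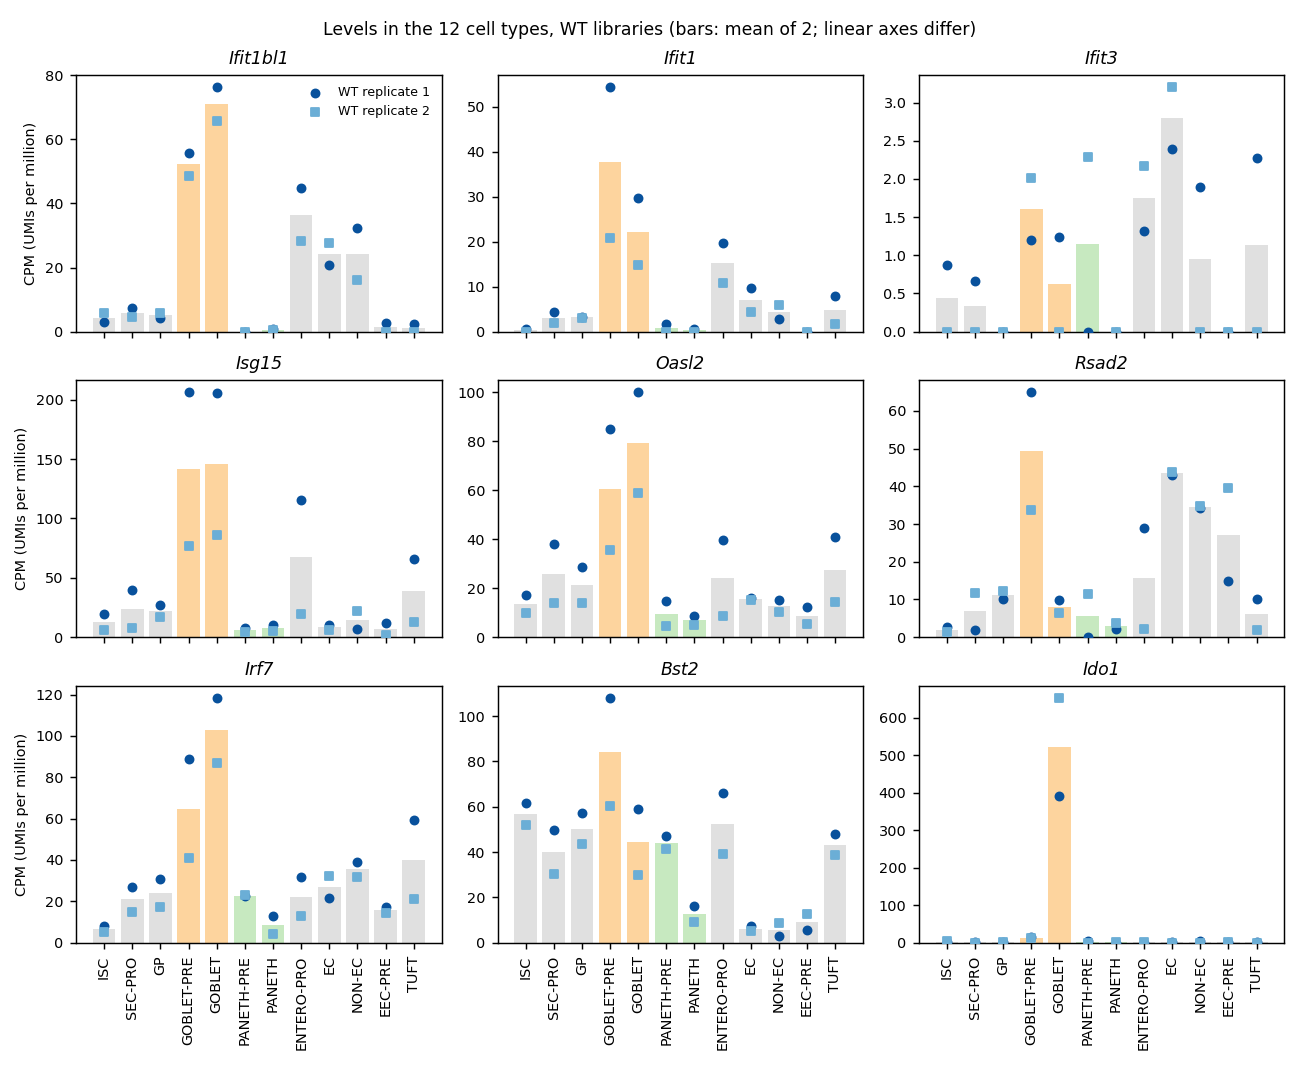
CPM of each gene (linear axis, a scale of its own per panel) in the 12 cell types of WT replicates 1 and 2; bars give the mean of both, orange for goblet and green for Paneth types. Ido1 stands out in GOBLET at 391 and 653 CPM, Rsad2 peaks in GOBLET-PRE and EC, and Bst2 has similar levels in many types.

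Goblet against Paneth lineage, the contrast on which these genes were picked, was widest for Ifit1bl1, Ido1 and Ifit1 in WT. Ifit1bl1 had 58.1 and 51.5 CPM in the goblet lineage of WT replicates 1 and 2 and 0.478 and 0.399 CPM, a single UMI each, in the Paneth lineage. Pooled over WT this was 866 against 2 UMIs, a ratio of 126 (95% interval 34.7 to 1038). Ido1 had 54.9 and 119 CPM against 0.956 and 1.20, with a pooled ratio of 81.8 (34.98 to 252). Ifit1 had 552 UMIs against 2, a pooled ratio of 80.0 (22.1 to 662). These and all other intervals here are exact and cover counting error only.

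The other members were also lower in the Paneth lineage, and of these only Ifit3 was nearly absent there. The pooled WT ratio was 19.9 (14.1 to 29.2) for Isg15, 12.4 (7.58 to 21.8) for Rsad2, 8.35 (5.93 to 12.1) for Oasl2, 6.11 (4.63 to 8.24) for Irf7 and 3.97 (3.20 to 4.97) for Bst2. Ifit3 rested on 23 against 1 UMI, with a ratio of 6.67 (1.08 to 275). Rsad2 depended on the library, with a ratio of 41.1 in WT replicate 1 and 5.61 in WT replicate 2, and in mature cells alone (GOBLET against PANETH) its pooled ratio was 2.46. That of Ido1 was 658 in mature cells and 6.64 between GOBLET-PRE and PANETH-PRE.

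Most genes were higher in goblet cells on this scale. Paneth marker genes, mainly defensins and lysozyme, summed to 541482 CPM on average in WT PANETH cells. All 9 members were higher in the goblet lineage in pooled WT, beside 86.8% of 10989 genes with at least 20 UMIs, so nothing is read from the count. The members' median log2 ratio was 3.30 and that of all those genes was 0.76. Leaving out defensin, mitochondrial and ribosomal protein genes from the totals divided each ratio by 1.65, to 76.0 for Ifit1bl1, 12.0 for Isg15 and 2.40 for Bst2. With cells thinned to 2000 UMIs the ratio of Ifit1bl1 was 66.4. The choice of members fixes this direction.

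In APC-KO the pooled ratios were smaller than in WT, as was the median over all genes, and the difference was not tested. Replicate 1 contributes only 27 Paneth lineage cells, and its ratios of Oasl2 (24.2, on 1 Paneth UMI) and Irf7 (12.9, on 2) were above those of pooled WT. Between mature cells alone Rsad2 (25.6) and Oasl2 (16.3) had larger pooled ratios in APC-KO than in WT (2.46 and 11.4). Pooled ratios were 6.69 (4.12 to 11.5) for Ifit1bl1, 8.81 (4.64 to 18.8) for Ifit1, 11.4 (8.06 to 16.6) for Ido1, 8.45 for Isg15, 8.11 for Rsad2, 5.74 for Oasl2, 4.34 for Irf7 and 2.40 for Bst2. Ifit3 had 7 against 5 UMIs, a ratio of 0.907 (0.248 to 3.62). All 8 members with at least 20 UMIs were higher in the goblet lineage, beside 49.6% of 10588 genes, and their median log2 ratio was 2.55 against -0.01 for all of those genes. The members were chosen on this contrast in these libraries, so nothing is read from the count or the median. Ido1 in the Paneth lineage was 34 UMIs (7.45 CPM) in APC-KO replicate 2 and 0 in replicate 1. In the 16 PANETH cells of replicate 1 the summed markers of ENTERO-PRO were 989 CPM, against 107 to 349 in the other libraries, and the part of this in the member values was not tested.

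**Figure D2:**
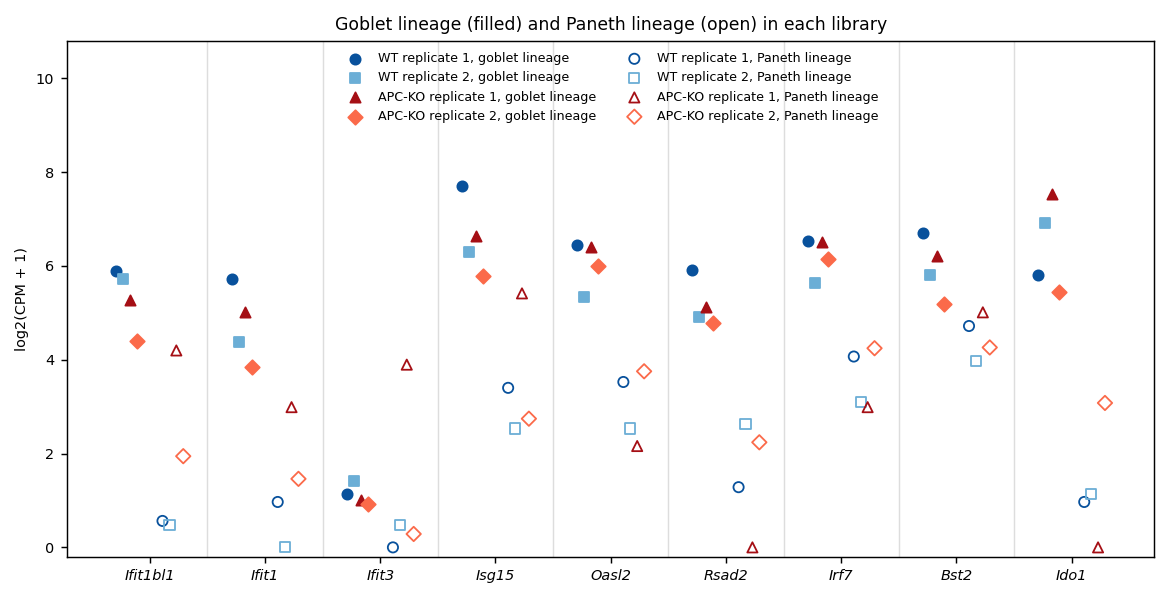
log2(CPM + 1) of each gene in the goblet lineage (filled) and the Paneth lineage (open) of the 4 libraries. Every filled WT symbol lies above both open WT symbols; the widest gaps are those of Ifit1bl1, Ifit1 and Ido1, and Isg15 and Ifit3 of APC-KO replicate 1 are the highest open symbols of their genes.

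Free RNA was taken from barcodes with 1 to 50 UMIs. Its profile held 29.0 to 67.8 CPM of Isg15, 27.5 to 58.2 of Bst2, 31.9 to 46.1 of Irf7, 15.6 to 37.9 of Oasl2, 9.16 to 20.03 of Ifit1bl1, 6.11 to 20.8 of Ifit1, 11.2 to 18.5 of Ido1, 6.87 to 13.6 of Rsad2 and 2.23 to 4.52 of Ifit3 over the libraries. The WT Paneth lineage lay below these values for each of the 9 genes. A level below free RNA does not by itself mark UMIs as background, since free RNA is only a part of a cell's UMIs. For Bst2, WT PANETH-PRE averaged 44.1 CPM and EC 6.26, both below free RNA. How much of the Paneth lineage UMIs came from free RNA was not tested. Among the levels compared below, several lay within the range of free RNA, such as those of Ido1 in WT GOBLET-PRE (14.0 and 11.3 CPM), of Ifit1bl1 in APC-KO GOBLET-PRE (14.0 and 11.04), of Ifit1 in APC-KO GOBLET-PRE (12.9 and 7.95) and, at or just under it, of Rsad2 in WT GOBLET (9.86 and 6.37).

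At the level of single cells Ido1 had the highest share of the members among WT GOBLET cells, closely followed by Isg15 in replicate 1 (47.9% of cells) and not in replicate 2 (28.5%). A UMI of Ido1 was found in 48.5% (40.6 to 56.4) and 66.3% (60.3 to 71.9) of GOBLET cells of WT replicates 1 and 2, and in 85.7% (67.3 to 96.0) and 32.4% (26.7 to 38.5) of those of APC-KO replicates 1 and 2. With each cell thinned to 2000 UMIs the shares were 38.7%, 48.9%, 66.7% and 22.0%, in that order, so the libraries kept their order. In APC-KO replicate 2 Oasl2 (34.0%) and Irf7 (33.2%) had unthinned shares like that of Ido1, and in APC-KO replicate 1 Oasl2 equalled it at 85.7%. In the WT Paneth lineage, at median depths of 6702.5 and 7260.5 UMIs per cell against 4904 and 5252 in GOBLET, the unthinned shares were 0.877% and 1.01%.

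GOBLET-PRE cells with Ido1 were few and some were rich in it. They made up 1.17% and 2.33% of WT cells, and 1 cell with 33 UMIs held 35.5% of all Ido1 UMIs of GOBLET-PRE in WT replicate 1. A single cell there, of 4434 UMIs, carried 86 UMIs of Isg15, 66 of Rsad2, 44 of Ifit1 and 35 of Ifit1bl1.

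In WT, the median pair of members met in the same GOBLET-PRE cells more often than the product of their shares. At 2000 UMIs, Ifit1bl1 and Ifit1 were found together in 25 of 1263 cells of WT replicate 1 (1.98%, where the product is 0.451%) and in 14 of 1241 cells of WT replicate 2 (1.13%, product 0.170%). Over the 28 pairs of members other than Ido1 the median of observed over product was 1.67 and 2.11 in these libraries. For the 8 pairs of Ido1 with another member it was 3.51 and 3.13 in these GOBLET-PRE cells, from 10 and 17 cells with Ido1, and for 7 such pairs in GOBLET cells it was 0.812 and 1.07. In APC-KO GOBLET-PRE cells it was 1.86 and 1.65 for pairs without Ido1 and 0 in both libraries for pairs with Ido1. Only 3 and 9 of these cells held Ido1, so nothing is read from the 0. These are descriptions of sparse counts.

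**Figure D3:**
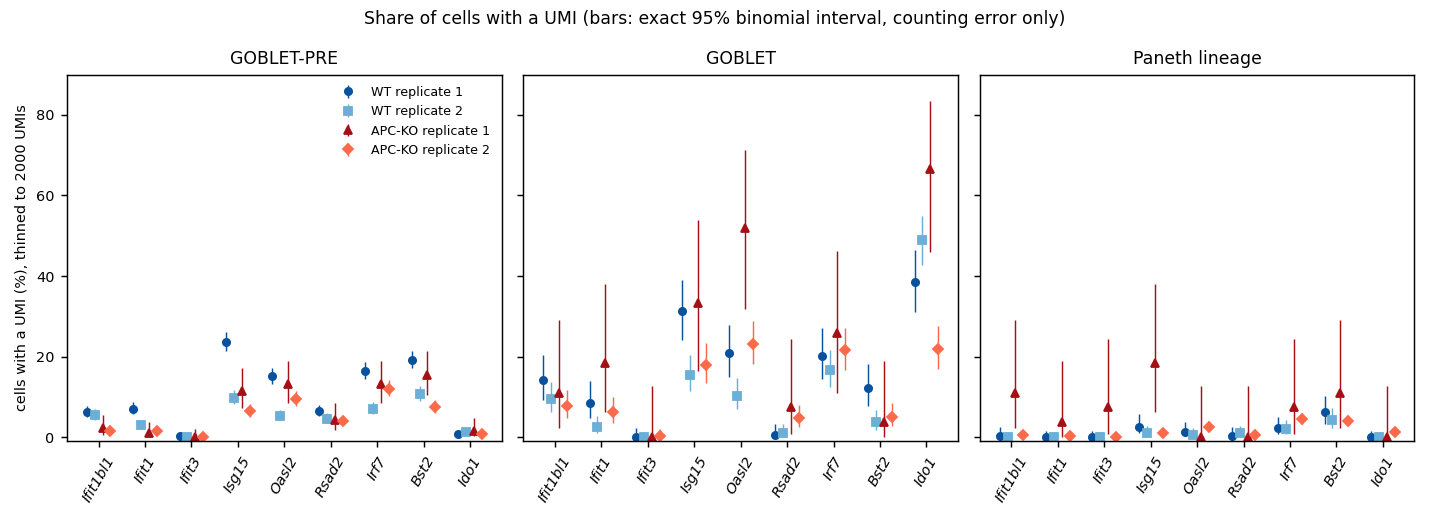
Percent of cells with a UMI of each gene after thinning every cell to 2000 UMIs, in GOBLET-PRE, GOBLET and the Paneth lineage of the 4 libraries; bars are exact 95% binomial intervals. Ido1 reaches 38.7% and 48.9% of WT GOBLET cells and 0 in the WT Paneth lineage, and the 27 or 28 cells of APC-KO replicate 1 give the wide bars.

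Between genotypes, no member passed the threshold (adjusted p of 0.05, edgeR's quasi-likelihood test over all genes) in GOBLET, GOBLET-PRE, EC or either lineage, and several members had changes of opposite sign in the 2 goblet types. The other types had under 20 cells in APC-KO replicate 1 and were not tested. In GOBLET, 0 of 8 tested members passed, beside 0.0837% of 5974 genes. At an unadjusted p under 0.05 there were 3, all higher in APC-KO, beside 669 of the 5974 genes. DESeq2 called 1 member, beside 6 genes in all. In GOBLET-PRE it was 0 of 8, beside 0.00974% of 10272 genes. Of these members 4 had an unadjusted p under 0.05, all lower in APC-KO, beside 817 of the 10272 genes. DESeq2 called 2 members, beside 38 genes in all. Ifit3 was too low to be tested in either.

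Rsad2 came nearest in GOBLET. The WT libraries held 9.86 and 6.37 CPM, the APC-KO libraries 97.9 and 40.8, and thus both APC-KO libraries lay above both WT libraries. The WT values rest on 8 and 9 UMIs and lie at the level of free RNA. The change was 2.68 in log2 (SE 0.46, 2 libraries a side, edgeR, adjusted p 0.0566), and it passed with DESeq2 (adjusted p 0.0244), without APC-KO replicate 1 (2.28, adjusted p 0.0374, edgeR) and without WT replicate 1 (2.98, adjusted p 0.00339, edgeR). It did not pass without WT replicate 2 (2.42, adjusted p 0.225), without APC-KO replicate 2 (3.39, adjusted p 0.553) or with cells thinned to 2000 UMIs (2.94, adjusted p 0.446, all edgeR).

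Ifit1 had 29.6 and 14.9 CPM in WT GOBLET cells and 191 and 38.7 under APC-KO, which is 1.83 in log2 (SE 0.58, edgeR, adjusted p 0.297). Oasl2 had 99.9 and 58.7 against 269 and 119, or 1.01 in log2 (SE 0.35, edgeR, adjusted p 0.325). These 2 and Rsad2 were the members whose APC-KO libraries were both above WT, beside 29.5% of the genes tested. The other 5 overlapped. Ido1 spanned the widest range, with 391 and 653 CPM in WT beside 1680 and 210 under APC-KO, or 0.58 in log2 (SE 0.61, edgeR, adjusted p 0.765).

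In GOBLET-PRE the order was turned for the IFIT genes. Ifit1bl1 had 55.9 and 48.6 CPM in WT and 14.0 and 11.04 in APC-KO, a change of -2.001 in log2 (SE 0.22, edgeR, adjusted p 0.102). It passed with DESeq2 (adjusted p 3.65e-05) and, by edgeR, without APC-KO replicate 1 (-2.18, adjusted p 0.0263), without WT replicate 1 (-1.83, adjusted p 0.0056) and without WT replicate 2 (-2.14, adjusted p 0.000631), but not without APC-KO replicate 2 (-1.73, adjusted p 0.163). Ifit1 had 54.4 and 20.8 against 12.9 and 7.95 CPM, or -1.86 in log2 (SE 0.55, edgeR, adjusted p 0.563).

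Isg15 had 206 and 76.5 CPM against 69.0 and 42.6, and Rsad2 had 64.9 and 33.7 against 26.4 and 23.4. Ifit1bl1, Ifit1, Isg15 and Rsad2 were below WT in both APC-KO libraries, beside 30.6% of genes. These genes were lower in WT replicate 2 than in WT replicate 1. Leaving out WT replicate 2 moved the median log2 fold change of the 8 tested members from -0.74 to -1.14 (edgeR). Leaving out WT replicate 1 moved it to -0.27, so its size depended on the WT library kept. Oasl2, Irf7, Bst2 and Ido1 overlapped, with log2 fold changes between -0.57 and 0.18.

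Other sums gave smaller values. In the goblet lineage 0 of 8 members passed, beside 0.0191% of 10445 genes. Unadjusted p was under 0.05 for 1 (Ifit1bl1, -0.92), beside 879 of those genes, and DESeq2 called 0 members, beside 35 genes. In EC it was 0 of 4, beside 0% of 8690 genes. Unadjusted p was under 0.05 for 1 (Oasl2, 0.86), beside 729 of those genes. DESeq2 called 0 members, beside 13 genes. It gave no adjusted p for 6907 of the 8690 genes, which counted as not called, so nothing is read from this 0. In the Paneth lineage it was 0 of 4, beside 0.663% of 8599 genes. Unadjusted p was under 0.05 for 0 members, beside 1273 of those genes. DESeq2 called 0 members, beside 38 genes, but gave no adjusted p for 8002 of the 8599 genes, so nothing is read from this 0 either. Rsad2 in EC had 43.1 and 43.8 CPM in WT and 43.9 and 47.8 under APC-KO, or 0.16 in log2 (SE 0.25, edgeR, adjusted p 0.894). Both APC-KO libraries were above WT for Oasl2 and Rsad2 in EC, beside 14.6% of genes, and below WT for Ifit1bl1 alone in the goblet lineage, beside 28.9% of genes.

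Since the members moved apart in GOBLET and GOBLET-PRE, the ratio of the 2 types within each library was taken. This comparison was added after those values had been seen. The ratio of GOBLET to GOBLET-PRE was 0.152 and 0.189 for Rsad2 in WT and 3.71 and 1.74 in APC-KO. For Ifit1 it was 0.544 and 0.716 against 14.8 and 4.87, for Ifit1bl1 1.37 and 1.36 against 17.4 and 5.63, and for Isg15 0.998 and 1.13 against 5.18 and 2.56. Each of these 4 ratios was higher in both APC-KO libraries than in both WT libraries, and that of Ifit1bl1 was above 1 in WT too. With Oasl2 and Bst2, 6 of 8 members had both APC-KO ratios above both WT ratios, beside 32.6% of 8644 genes. Irf7 (1.33 and 2.12 against 2.45 and 1.89) and Ido1 (28.0 and 57.7 against 136 and 35.2) overlapped.

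A fit of the 8 sums with the library as a term called the difference of the genotype effect for 4 of 8 members, beside 0.15% of genes (0.127% higher, as these 4 were). It was 3.44 for Rsad2 (SE 0.41, adjusted p 4.23e-13), 3.42 for Ifit1 (SE 0.37, adjusted p 8.58e-17), 2.42 for Ifit1bl1 (SE 0.31, adjusted p 2.59e-11) and 1.42 for Isg15 (SE 0.26, adjusted p 6.64e-05), on the log2 scale with edgeR. These p-values take a spread shared over genes as if it were known exactly. Their size does not reflect how few libraries there are. Oasl2 was 0.81, Ido1 0.48, Bst2 0.46 and Irf7 0.02, none of which passed. DESeq2 called Rsad2, Ifit1 and Ifit1bl1 and not Isg15 (adjusted p 0.495). Limma on the 4 log2 ratios of the libraries gave nearly the same sizes and called no gene: Rsad2 was 3.53 (unadjusted p 0.00166, adjusted p 0.872) and Ifit1 3.39 (unadjusted p 0.00525, adjusted p 0.872).

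The calls of this comparison also depended on the libraries and the depth per cell. Without either WT library Isg15 was lost (adjusted p 1 and 0.526, edgeR), while Rsad2, Ifit1 and Ifit1bl1 were still called. Without APC-KO replicate 1 all 4 were called by edgeR, at 3.18 for Rsad2, 2.82 for Ifit1, 1.85 for Ifit1bl1 and 1.11 for Isg15. With cells thinned to 2000 UMIs Rsad2 alone passed (3.80, adjusted p 0.00403, edgeR), and Ifit1 (2.60, adjusted p 0.0636) and Ifit1bl1 (2.11, adjusted p 0.08) did not.

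A single cell weighed on some of these sums. In APC-KO replicate 1, 1 of 28 GOBLET cells held 22.0% of the UMIs of the 8 members other than Ido1, and in GOBLET-PRE of WT replicate 1 the richest cell held 5.34%. Leaving out the richest cell of each sum kept all 4 calls, at 3.13 for Rsad2, 3.14 for Ifit1, 2.10 for Ifit1bl1 and 1.21 for Isg15 (edgeR). Jun and Fosb, genes of the early response to stress and handling, moved the same way, with differences of 1.53 and 2.12: Fosb had 30.8 and 41.8 CPM in WT GOBLET cells and 402 and 69.3 in APC-KO. Their part in the result was not tested.

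**Figure D4:**
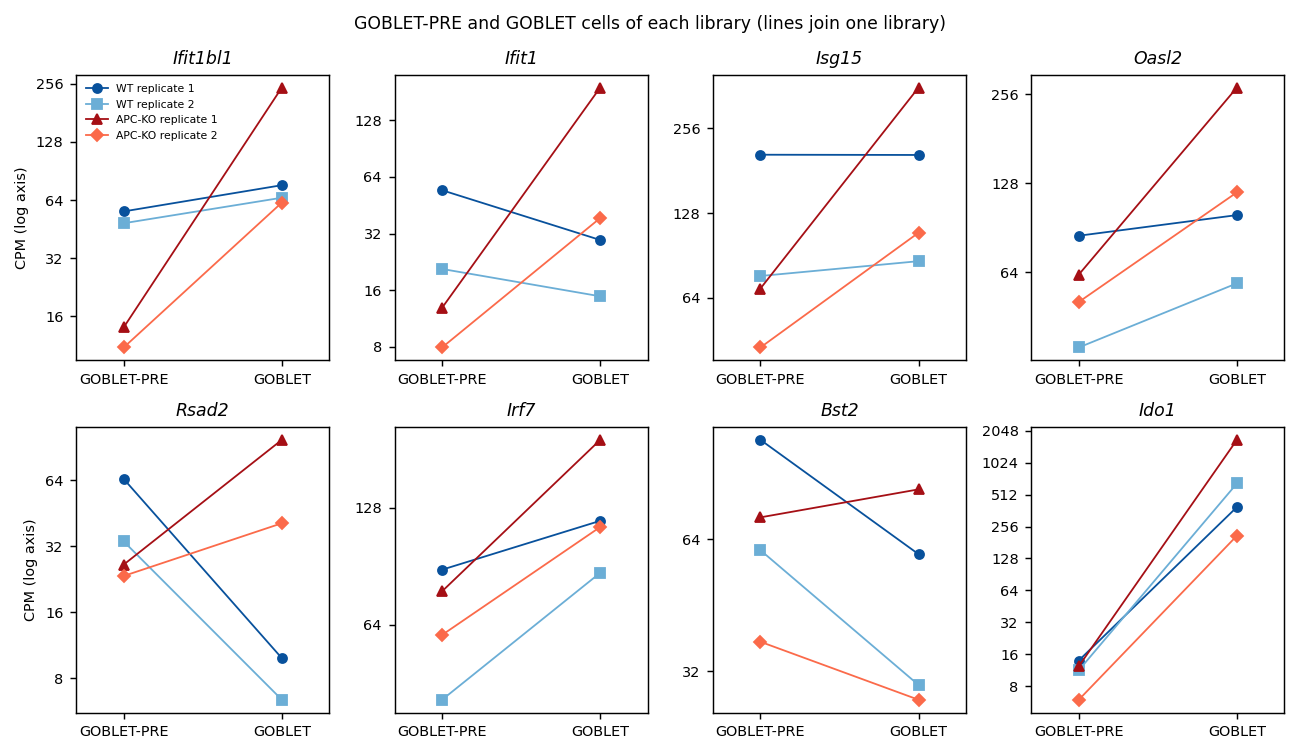
CPM (log axis, own scale per panel) of 8 genes in GOBLET-PRE and GOBLET cells, with a line for each library. Lines of Rsad2 and Ifit1 fall in both WT libraries and rise in both APC-KO libraries, whereas those of Ido1 and Irf7 rise in all 4.

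The rest of the interferon pathway was read from gene lists. Of 11 ligand genes none had more than 1 UMI in any goblet sum, and none had a UMI in the Paneth lineage. Receptors were present: Ifngr1, a chain of the interferon gamma receptor, had 98.6 and 133 CPM in WT GOBLET cells and 20.6 and 20.3 in the WT Paneth lineage, and Il10rb, shared by the receptors of type III interferon and interleukins, had 34.5 and 40.3 against 25.8 and 21.9. Of 6 receptors, 5 were higher in the goblet lineage in pooled WT (median log2 ratio 1.02), as were 10 of 11 transducers (1.13), beside 86.8% of all genes and their median of 0.76, so nothing is read from these counts.

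Other interferon-stimulated genes were also mostly higher in the goblet lineage. With at least 20 UMIs in pooled WT, 43 of 44 were higher in the goblet lineage, with a median log2 ratio of 2.33, beside 86.8% of all genes and a median of 0.76. For interferon gamma targets it was 16 of 18, a share near that of all genes, with a median of 1.48. Ddx60, a helicase of the antiviral response, had 250 and 122 CPM in WT GOBLET cells and 5.74 and 3.59 in the Paneth lineage. Ifi27l2b, of the Ifi27 family, had 2799 and 2831 CPM against 149 and 105. Ifitm2, an antiviral membrane protein, had 54.2 and 25.5 CPM in WT GOBLET cells and 141 and 138 in the Paneth lineage.

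By genotype, 0 of 38 of these interferon-stimulated genes passed in GOBLET by edgeR and 0 by DESeq2. By edgeR 11 had an unadjusted p under 0.05, 10 of them higher in APC-KO, beside 669 of all 5974 genes tested. The median log2 fold change was 0.40, against 0.01 for all genes tested. In GOBLET-PRE 0 of 43 passed by either tool, with a median of -0.20 against -0.00. By edgeR 3 had an unadjusted p under 0.05 there, all lower, beside 817 of all 10272 genes tested. For the difference between the types, 3 of 41 passed by edgeR (Trim30a at 2.58, Herc6 at 1.72 and Ddx60 at 1.33), beside 13 of 8644 genes, and 0 by DESeq2. Of the 41, 36 were above 0, and the median was 0.48 against -0.004 for all genes tested. Usp18, which shuts off the type I receptor, had 12.3 and 3.54 CPM in WT GOBLET cells and 53.9 and 16.3 in APC-KO, and 13.8 and 5.30 against 2.25 and 6.18 in GOBLET-PRE, with no call in any fit.

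For interferon gamma targets the median log2 fold change was 0.92 in GOBLET (10 of 11 above 0) and 0.56 in GOBLET-PRE (13 of 14 above 0). For all genes tested it was 0.013 and -0.0004. None of these targets passed by edgeR or DESeq2 in either type. By edgeR 5 and 4 had an unadjusted p under 0.05, beside 669 of 5974 and 817 of 10272 genes. Wars, which charges tryptophan onto its transfer RNA, had 287 and 236 CPM in WT GOBLET cells and 779 and 368 in APC-KO. Summed immune cell markers were 4.49 to 28.0 CPM in the 8 goblet sums, highest in both types of APC-KO replicate 2, and stromal markers were 0 in all 4 GOBLET sums and at most 1.12 CPM in GOBLET-PRE. Their part in the level of Ido1 was not tested.

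Around Ido1 the kynurenine pathway was scarce. Of its 17 listed genes 8 had at least 20 UMIs in pooled WT lineages, 6 of them higher in goblet cells, with a median log2 ratio of 0.72 beside the 0.76 of all genes. Slc3a2, a chain of the amino acid carrier that takes up tryptophan, had 53.0 and 80.7 CPM in WT GOBLET cells. Slc7a5, of the same list, had 0 and 3.54 CPM there. Ahr, the receptor that kynurenine can bind, had 3.70 and 7.08. Its target Tiparp had 11.1 and 9.91 CPM in GOBLET and 35.6 and 49.4 in GOBLET-PRE, against the order of Ido1.

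The WT libraries differed from each other in the antiviral genes. In the goblet lineage 7 of 9 members were higher in WT replicate 1, beside 40.1% of 10591 genes, with Ido1 and Ifit3 as the exceptions. The same held for 40 of 44 other interferon-stimulated genes, with a median log2 ratio of 0.77 against -0.06 for all genes, and for 15 of 16 interferon gamma targets (0.80). Of receptors 2 of 6 were higher, and of transducers 6 of 11 (median 0.01). By type, 6 of 7 members were higher in GOBLET (beside 55.7% of genes), 8 of 9 in GOBLET-PRE (34.4%), 5 of 6 in SEC-PRO (39.8%) and 4 of 4 in ISC (44.2%). In EC it was 1 of 4 members, beside 42.4% of genes, and 16 of 23 other interferon-stimulated genes, with a median of 0.16. Labels give no batch or animal for this difference, and it has no replicate of its own. In APC-KO GOBLET-PRE the 8 tested members were also higher in replicate 1 than in replicate 2, with Isg15 at 69.0 and 42.6 CPM. Whether libraries of the same number have anything in common was not tested.

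Genes most like the members were sought over the 24 WT sums of library and type, by Pearson's r of log2(CPM + 1) among genes with a mean of at least 20 CPM. These sums share libraries and depth, so r is a description. The 5 most like Ido1 were S100a6 (0.81), Zg16 (0.81), H2-T23 (0.79), Odf2l (0.77) and AW112010 (0.76), of 6057 genes. Zg16 is a lectin of goblet cell granules, and H2-T23 is a nonclassical MHC class I gene. The 5 most like the summed other 8 members were Ddx60 (0.88), Parp14 (0.86), Raph1 (0.84), Ralgps2 (0.83) and Smdt1 (0.83), of 6053 genes. Ido1 itself had r between 0.51 and 0.61 with Ifit1bl1, Ifit1, Isg15, Oasl2 and Irf7, and 0.21 or less with Bst2, Rsad2 and Ifit3.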

How the data were processed

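Per the labels' protocols, single-cell libraries used 10x 3′ v3.1 reagents. The deposited matrices hold raw UMI counts per gene and barcode, per the file headers. Cell Ranger 3.0.2, STAR and mm10 are named in the submitters' processing notes, while how reads were assigned is not given in these sources. The authors' deposited tables give each kept cell's count of UMIs and genes, its mitochondrial share in percent and its type name; how cells were filtered, how types were named and how doublets were treated was not stated, and no doublet caller was run.

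UMIs were summed per library and type. Genotype was tested with edgeR 4.0.16 (TMM, filterByExpr, quasi-likelihood test, Benjamini-Hochberg at 0.05 over all tested genes) on sums of at least 20 cells per library, without a replicate block, as tested on simulated data. Alternatives were DESeq2 1.42.0 (size factors, Wald test), no filter, a replicate block, each library left out, cells of at least 2000 UMIs, and thinning to 2000 UMIs. The comparison of GOBLET with GOBLET-PRE across genotypes, its limma 3.58.1 form and the cell left out were added after seeing the data. CPM intervals are exact Poisson, ratios exact conditional and shares exact binomial (Clopper-Pearson). Kept cells held between 3009636 and 27285079 UMIs a library; a sum of 204205 UMIs (GOBLET, APC-KO replicate 1) makes 3 counts equal 14.7 CPM. Positions were read from GENCODE on GRCm38.

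Named were all 9 members, listed pathway genes called in any fit and the 4 with the highest WT goblet lineage CPM in each list; of these a selection is printed, chosen after seeing values. Likeness names the 5 genes of highest r. Jun and Fosb were named after their values were seen. Members, lists and rules were chosen with earlier results of these data known.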

Additional observations from a re-analysis of the deposited data

Results flagged for a closer look

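For 4 genes the genotype effect differed between GOBLET and GOBLET-PRE cells by edgeR's test of the difference itself, which called 13 of 8644 genes. This comparison was added after the members' values in both types had been seen. Its p-values are therefore not an independent test of the pattern, and they take a spread shared over genes as if known exactly. On the log2 scale the APC-KO minus WT change in GOBLET exceeded that in GOBLET-PRE by 3.44 for Rsad2, 3.42 for Ifit1, 2.42 for Ifit1bl1 and 1.42 for Isg15 (adjusted p 4.23e-13, 8.58e-17, 2.59e-11 and 6.64e-05, edgeR). Both APC-KO libraries had a higher GOBLET to GOBLET-PRE ratio than both WT libraries for each of the 4, beside 32.6% of 8644 genes. Limma on the 4 ratios called none of them, and DESeq2 did not call Isg15. With cells thinned to 2000 UMIs edgeR called Rsad2 alone. With 2 libraries per genotype no group was large enough for a check for outlying libraries.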

How the results depend on the processing

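Counts of called genes moved with the processing, and the members' median log2 fold change moved with the libraries: in GOBLET it was 0.61, falling to -0.11 when APC-KO replicate 1 was left out and reaching 1.48 when replicate 2 of that genotype was; in GOBLET-PRE -0.74 and -0.27 without WT replicate 1, and in the goblet lineage -0.51 and 0.09 without WT replicate 1. In GOBLET 5 genes and 0 members were called by edgeR; no filter gave 79 and 2, the replicate block 73 and 3, thinning 3 genes, DESeq2 1 member, and leaving out each library 0 to 21 genes and 0 to 1 members. In GOBLET-PRE 1 gene and 0 members were called; DESeq2 gave 38 and 2, no filter 280 and 4, the replicate block 110 and 3, thinning 3 and 1, and leaving out each library 7 to 64 and 0 to 4. In the goblet lineage 2 genes and 0 members were called; DESeq2 gave 35 genes, no filter 324 and 3, the replicate block 27 genes, thinning 11 and 1, and leaving out each library 7 to 56 genes. In EC 0 genes were called; DESeq2 gave 13, no filter 174, thinning 30, and leaving out each library 0 to 405. In the Paneth lineage 57 genes and 0 members were called; no filter gave 477 genes, the replicate block 124, thinning 128, and leaving out each library 0 to 461 genes and 0 to 1 members. For the difference between GOBLET and GOBLET-PRE, 13 genes and 4 members were called; thinning gave 1 and 1, DESeq2 4 genes, limma 0 and 0, and leaving out each library 4 to 198 genes. Isg15 in the Paneth lineage ran from -1.12 to 2.33 over the libraries left out, and was 2.33 (adjusted p 0.0281, edgeR) without APC-KO replicate 2, which leaves 27 APC-KO cells; the cause was not tested. Over all tested genes, same-numbered libraries did not deviate together (correlations of -0.048 to 0.012). The 8 members tested in GOBLET-PRE were nevertheless each higher in replicate 1 of both genotypes. Whether same-numbered libraries share a batch was not tested. The labels name no pairs, so the replicate block pairs nothing known. With 28 GOBLET and 27 Paneth lineage cells in APC-KO replicate 1, depth limits every comparison that uses it.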
